A study of Mus musculus with 18 samples.

Results

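Six3 Drd2 nuclei were nuclei of the embryonic mouse forebrain that carried the RNAs of the transcription factor Six3, of its antisense transcript Six3os1 or of the dopamine receptor Drd2. They were chosen by counts of unique molecular identifiers (UMIs, 1 per captured RNA molecule) in each nucleus. A nucleus entered with a UMI of Six3, Six3os1 or Drd2, with UMIs of at least 2 of the 6 genes Six3, Six3os1, Drd2, Gucy1a1, Grm4 and Syt6, and with a UMI of Gad1, Gad2 or Dlx6os1, which mark GABAergic (inhibitory) cells. Nuclei with a UMI of Ebf1, Lhx6, Neurod2, Neurod6 or Top2a were left out. The rule found 3425 nuclei among the 201918 that held 800 to 6000 UMIs, 300 to 3000 genes and at most 1% mitochondrial UMIs, and 6.78% of the 50482 GABAergic nuclei. Nuclei counted as GABAergic held a UMI of Gad1, Gad2 or Dlx6os1 and none of Neurod2, Neurod6 or Top2a. The deposited matrices listed 261143 barcodes in all.

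The tissue was forebrain taken at embryonic day 14 from a C57BL/6J line with a frameshift in Myt1l, a zinc finger transcription factor of young neurons. The paper says that forebrains were dissected, while its account of nuclei isolation names prefrontal cortices, so the extent of the tissue is not settled. Wild-type embryos (WT), embryos with 1 mutant allele (Het) and embryos with 2 (KO) came from crosses of Het parents, with 3 animals in each group and no other treatment. Nuclei were profiled by a combinatorial barcoding assay. Each animal has 2 libraries, which the titles call run 1 and run 2 without saying what a run was, and the genotypes were taken from the sample titles because the genotype label of run 1 gave every library as WT. The allele is constitutive, so every cell of a KO embryo lacked the protein from the start, and these data do not separate effects within the nuclei from effects of their surroundings.

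Striatal projection neurons are GABAergic cells born in the lateral part of the ganglionic eminences. They fall into a direct pathway type, which makes the dopamine receptor Drd1 and depends on Ebf1 and Isl1, and an indirect pathway type, which makes Drd2, the adenosine receptor Adora2a and the opioid precursor Penk. Six3 acts with the zinc finger factors Sp8 and Sp9 in forming the indirect type. Six3 and Drd2 are also made by other neurons of the ventral forebrain, among them cells of the septum and its surroundings, where Zic factors are typical.

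The animals gave 332, 504 and 313 members in WT, 367, 350 and 373 in Het, and 210, 517 and 459 in KO. Run 1 supplied 726 and run 2 supplied 2699, and single libraries held 53 to 426. The median member had 2670 UMIs and 1557 genes, and summed counts per animal ran from 636161 in KO replicate 1 to 1434857 in KO replicate 2. No barcode occurred in members of more than 1 library. Xist read 372 CPM (a gene's counts as a share of the total, in the usual parts-per-1000000 scaling) over all nuclei of WT replicate 3 and at most 0.711 CPM in the other 8 animals, so 1 of the 3 WT animals differed in sex from every other animal, a difference that cannot be told apart from its share of the WT spread.

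The genes of the rule were spread unevenly over the members. A Six3 UMI was present in 71.7% of members, Six3os1 in 67.4%, Syt6 in 45.3%, Gucy1a1 (a subunit of the nitric oxide receptor) in 42.7%, Drd2 in 25.6% and Grm4 (a presynaptic glutamate receptor) in 24.3%. These shares were set by the rule and carry no test. In 45292 glutamatergic nuclei, which should lack these genes and whose median depth was 2806 UMIs, the shares were 0.647% for Six3, 0.539% for Six3os1 and 0.219% for Drd2. Glutamatergic nuclei held a UMI of Neurod2 or Neurod6 and none of Gad1, Gad2, Dlx6os1 or Top2a. Nuclei with RNA of the GABAergic genes were thus left out beforehand. That favours low shares, so they do not measure the background of the rule. Drd2 lies at chr9:49340627-49408177 and Six3 at chr17:85613608-85629302 of GRCm38, and Six3os1 overlaps Six3 on the opposite strand at chr17:85600651-85618398. No source used here says whether counting respected strand, so reads of Six3 and Six3os1 may not be separable, and a nucleus could enter on that one locus alone.

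Of the indirect pathway genes outside the rule, few were high at this age. Adora2a averaged 23.3 ± 6.90 CPM in members (SD, n = 9 animals), Sp9 108 ± 18.5, Sp8 15.8 ± 4.73 and Penk 11.9 ± 5.70. Gpr6, Gpr52 and Nt5e, which mark the mature indirect type, averaged 0.702, 0.638 and 3.44 CPM. A UMI of Adora2a was found in 5.75% of members, 0.131% of Ebf1 direct-type nuclei and 0.197% of glutamatergic nuclei. Penk was found in 2.77% of members, 0.557% of direct-type nuclei and 0.179% of glutamatergic nuclei. Members with and without Drd2 differed in these genes and in septal ones, so the nuclei are called here by the genes that chose them. The name does not mean that Six3 and Drd2 went together, since 428 of the 3425 members held UMIs of both.

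**Figure D1:**
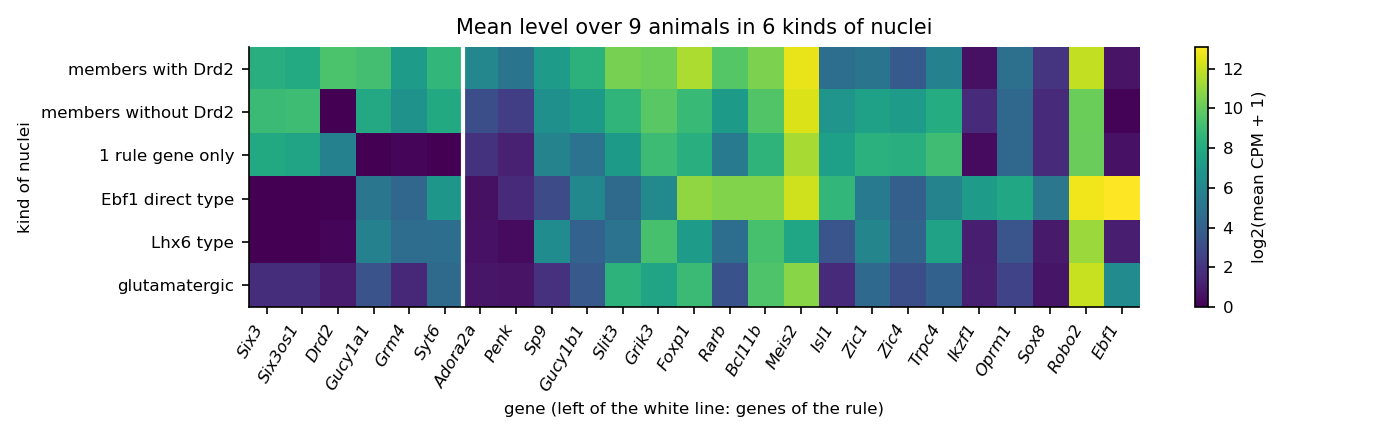
Mean level of 25 genes (columns) in 6 kinds of nuclei (rows), as log2 of the mean CPM over 9 animals plus 1, with the genes of the rule left of the white line. Adora2a, Foxp1 and Rarb are brighter in members with a Drd2 UMI than in members without one, and Zic1, Zic4 and Trpc4 are brighter in members without Drd2 and in nuclei with 1 rule gene only.

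The nuclei changed in kind across the threshold and also among the members. Members with exactly 2 of the 6 genes numbered 1768, 51.6% of all, and 2259 nuclei met every other condition with 1 gene only. Adora2a averaged 8.98 CPM just inside and 2.77 CPM just outside, and Foxp1, a striatal transcription factor, 579 and 309 CPM. Zic4 went the other way, with 195 CPM just inside and 290 CPM just outside, and a UMI of Zic1 was found in 27.3% and 39.2% of the nuclei. Over all members Zic1 was found in 16.2%, so members with more than 2 genes held it less often than those with exactly 2. Only 40 members held all 6 genes. Before the bar on other classes 5793 nuclei qualified, and of the 2368 removed 1468 had Top2a (dividing cells), 743 had Ebf1, 477 had Neurod2 or Neurod6 and 251 had Lhx6.

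Members with a Drd2 UMI (876 nuclei) and members without one (2549) differed widely. By the rule every member without Drd2 held Six3 or Six3os1. Of those with Drd2, 313 held neither and entered with Gucy1a1, Grm4 or Syt6. The 2 kinds so differed in the genes of entry beyond Drd2, and the part of entry in the differences below was not tested. The 2 kinds were compared within each of the 9 animals by edgeR's quasi-likelihood test with the animal as a term, the genes of the rule were left out, and a gene was called at an adjusted p below 0.05 and a log2 difference above 0.5. Of 6301 genes tested 317 were higher with Drd2 (5.03%) and 369 lower (5.86%). A gene could pass the filter on low counts through 1 of the 2 kinds alone. For a gene near the floor in the other kind, such as Adora2a or Zic4, that filter favoured the direction found. The median depths of the 2 kinds were close, at 2808.5 and 2624 UMIs.

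Genes of striatal projection neurons were higher in members with Drd2. Adora2a read 50.02, 62.4 and 94.8 CPM (lowest, median and highest of 9 animals) with Drd2 and 2.56, 6.29 and 17.8 CPM without. Every animal with Drd2 lay above every animal without, a log2 difference of 3.09 (SE 0.21, edgeR adjusted p = 4.41e-11). Foxp1 read 2330, 2772 and 3604 CPM with Drd2 and 323, 474 and 546 CPM without, a log2 difference of 2.65 (SE 0.08, edgeR adjusted p = 1.74e-17). Rarb, a retinoic acid receptor of the striatum, read 456, 739 and 1066 CPM against 102, 129 and 214 CPM, with a log2 difference of 2.53 (SE 0.10). Again the ranges did not overlap. Among the 10 genes with the largest increase were also Skap2 at a log2 difference of 2.46, Caln1 at 2.33, Utrn at 2.29, the kainate receptor partner Neto1 at 2.19, the heparan sulfate enzyme Hs3st4 at 2.10, Mcc at 2.06 and the secreted protein Scube1 at 2.06.

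Genes of the septal and ventral forebrain were higher in members without Drd2. Zic1 read 9.16, 28.6 and 61.5 CPM with Drd2 and 78.0, 163 and 278 CPM without, and Zic4 0, 11.3 and 26.0 CPM against 55.3, 116 and 248 CPM. Trpc4, a calcium channel of the septum, read 31.0, 46.1 and 85.7 CPM with Drd2 and 148, 270 and 416 CPM without. None of these ranges overlapped, and the log2 differences were -2.47 (SE 0.14), -3.36 (SE 0.22) and -2.26 (SE 0.15), with edgeR adjusted p-values of 1.23e-12, 2.04e-11 and 4.42e-11. Of 5 septal and ventral markers 3 could be tested, and all 3 were lower with Drd2, a direction that the filter favoured for Zic4. The markers were listed with earlier results of these data known, so this count carries no test. The others of the 10 largest decreases were the long noncoding RNA Gm29478 at -4.01, Prdm16 at -3.34, the peptidase Ecel1 at -2.80, the chloride channel Ano1 at -2.49, the GDNF receptor Gfra1 at -2.31, Epb41l4a at -2.25 and the vesicular monoamine transporter Slc18a2 at -2.21. A UMI of Zic1, Zic2, Zic4, Prdm12 or Trpc4 was found in 11.5% of members with Drd2 and in 28.9% of those without.

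**Figure D2:**
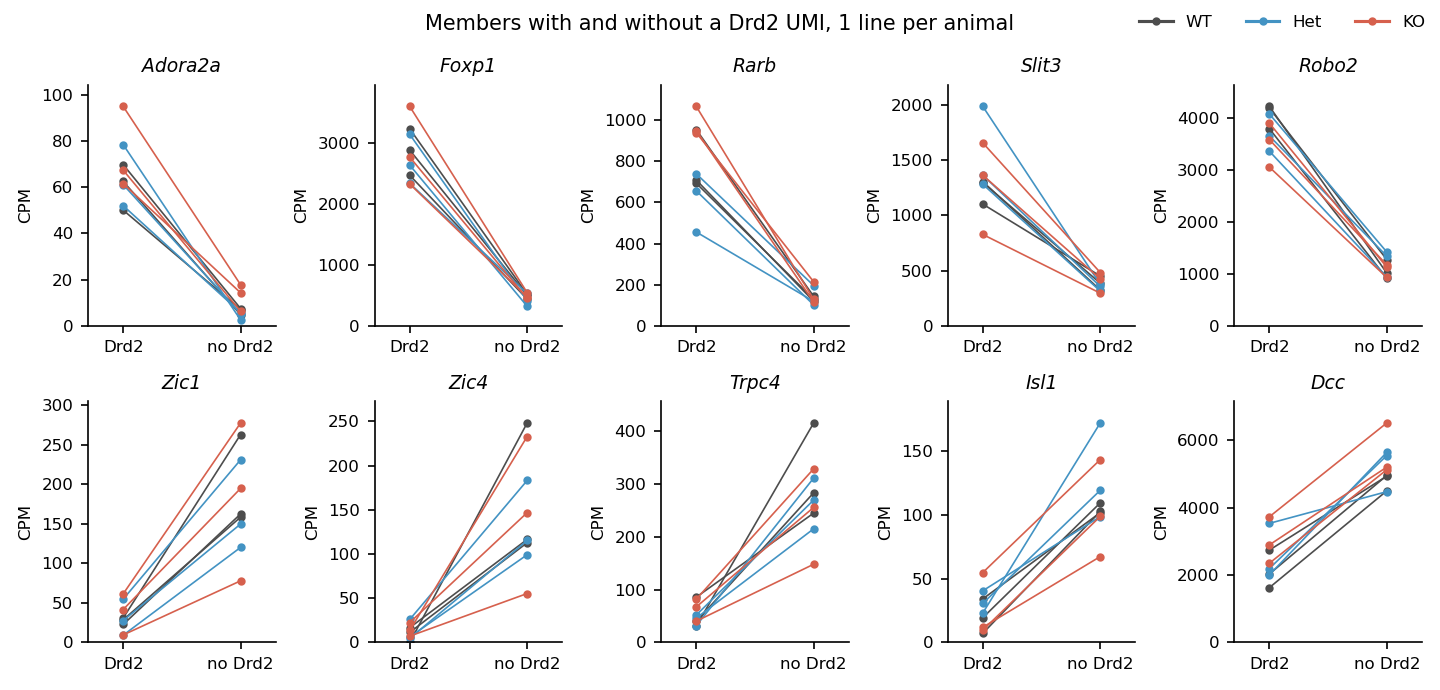
Level in CPM (y axis, linear from 0) of 10 genes in members with and without a Drd2 UMI, 1 line per animal, coloured by genotype. The lines of Adora2a, Foxp1, Rarb, Slit3 and Robo2 fall in all 9 animals and those of Zic1, Zic4, Trpc4, Isl1 and Dcc rise in all 9.

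By function, 11 of 15 tested genes that both striatal projection neuron types share were higher in members with Drd2 and 2 were lower, with a median log2 difference of 1.02 against 0.01 over all genes tested. The higher ones included Bcl11b (1456 ± 334 CPM with Drd2, 747 ± 171 without, SD over 9 animals) and Gnal, the olfactory G protein that couples Drd1 and Adora2a to adenylyl cyclase (201 ± 33.1 and 70.2 ± 10.7). Foxp2 (456 ± 208 and 1255 ± 361) and the phosphatase gene Ptpn5 (61.1 and 120 CPM) were lower. Of the dopamine and cAMP signalling genes 7 of 28 were higher, among them the phosphodiesterases Pde4b (998 ± 169 and 265 ± 66.9 CPM), Pde7b (323 and 100) and Pde10a (611 and 348), 1 was lower (Gnai2), and 20 did not pass. Of the nitric oxide and cGMP genes Gucy1b1, the partner of Gucy1a1 (345 ± 37.5 and 138 ± 22.4 CPM), and Pde2a were higher and Gucy1a2 and Pde9a lower. Direct pathway genes fell as far as they could be tested, with Isl1 at 25.6 ± 15.8 CPM with Drd2 and 112 ± 29.9 without, and Zfp521 at 91.1 and 340 CPM.

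Axon guidance genes split in both directions, with 8 of 29 tested higher with Drd2 and 10 lower. The receptor Robo2 read 3763 ± 391 CPM with Drd2 and 1129 ± 189 without, and the ligand Slit3 1353 ± 324 and 380 ± 63.8. Epha7 (498 and 220 CPM) and Ephb1 (820 and 412) were also higher. The netrin receptor Dcc read 2564 ± 715 CPM with Drd2 and 5205 ± 631 without. The semaphorin co-receptors Nrp1 (81.8 ± 28.4 and 272 ± 48.6) and Nrp2 (87.9 and 278) were lower. Of the Myt1 family, Myt1 (95.8 ± 17.5 and 164 ± 22.5 CPM) and St18 (21.4 and 69.5) were lower with Drd2, and Myt1l (2504 and 1927) was at a log2 difference of 0.43, under the 0.5 needed for a call. Among progenitor markers 1 of 4 tested, the proliferation marker Mki67, was lower with Drd2 (30.5 and 51.1 CPM), as was 1 of 3 caudal eminence markers, Adarb2 (551 and 1431 CPM). A nucleus without a Drd2 UMI may still have made the RNA, since the median member was read at 2670 UMIs.

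Members were then set against Ebf1 direct-type nuclei of the same animals. These were 6101 GABAergic nuclei with Ebf1, with a UMI of Drd1, Isl1, Tac1, Pdyn or Zfp521 and without Six3, Six3os1, Drd2, Lhx6, Neurod2, Neurod6 or Top2a, at a median of 2922 UMIs. Genes of either rule were left out and a call needed an adjusted p below 0.05 and a log2 difference above 1. Of 10069 genes 295 were higher in members (2.93%) and 277 lower (2.75%). Here too a gene could pass the filter on low counts through 1 kind of nuclei alone.

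Among genes with a mean of 50 CPM or more in the higher kind, those highest in members over the direct type were led by Slit3. It read 418, 642 and 862 CPM (lowest, median and highest animal) in members and 7.81, 21.6 and 32.1 CPM in the direct type. The log2 difference was 4.89 (SE 0.14, edgeR adjusted p = 1.06e-17). The transcription cofactor Dach2 followed at 4.40, the receptor phosphatase Ptprm at 4.33 and Sp9 at 3.93. Sp9 read 70.7, 109 and 140 CPM in members and 4.45, 5.99 and 12.1 CPM in the direct type, with no overlap. The kainate receptor subunit Grik3 read 714, 954 and 1166 CPM against 57.1, 77.2 and 85.9 CPM, a log2 difference of 3.60 (SE 0.07, edgeR adjusted p = 1.80e-20). The serotonin receptor Htr1f (3.64), the heparan sulfate enzyme Ndst3 (3.54) and the extracellular matrix protein Tnr (3.48) were also among the 10, as were Gm29478 (3.68) and Otx2os1 (3.66). Otx2os1, Htr1f and Sp9 lay near the floor in the direct type, at means of 4.01, 4.61 and 7.34 CPM. Passing the filter on low counts favoured their direction. Gm29478 and Otx2os1 were uneven over the animals, at 57.1 to 379 CPM and 9.76 to 129 CPM in members. With only the Drd2 members Gm29478 was at a log2 difference of 0.03 (edgeR adjusted p = 0.98).

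At the same limit on level, the genes lowest in members against the direct type were led by Ikzf1, a zinc finger factor. It read 0, 0.922 and 6.01 CPM in members and 113, 149 and 188 CPM in the direct type. The log2 difference was -6.53 (SE 0.19, edgeR adjusted p = 9.88e-18). The adhesion gene Cntnap3 (-4.98), Frmd6 (-4.15), the collagen Col25a1 (-4.14), Stra6l (-4.06), the kinesin adaptor Sybu (-3.85), Gm2824 (-3.76), the orphan receptor Gpr149 (-3.74), Dlc1 (-3.63) and the ion channel family gene Ano3 (-3.56) followed. In each of them every animal's members lay below its direct-type nuclei. Ikzf1, Stra6l, Gpr149, Cntnap3 and Gm2824 lay near the floor in members, at means of 1.62, 4.20, 5.39, 5.51 and 6.89 CPM. Passing the filter on low counts favoured the direction found for these genes. Oprm1, the mu opioid receptor of striosome neurons, read 17.2 to 28.1 CPM in members and 168 to 273 CPM in the direct type.

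**Figure D3:**
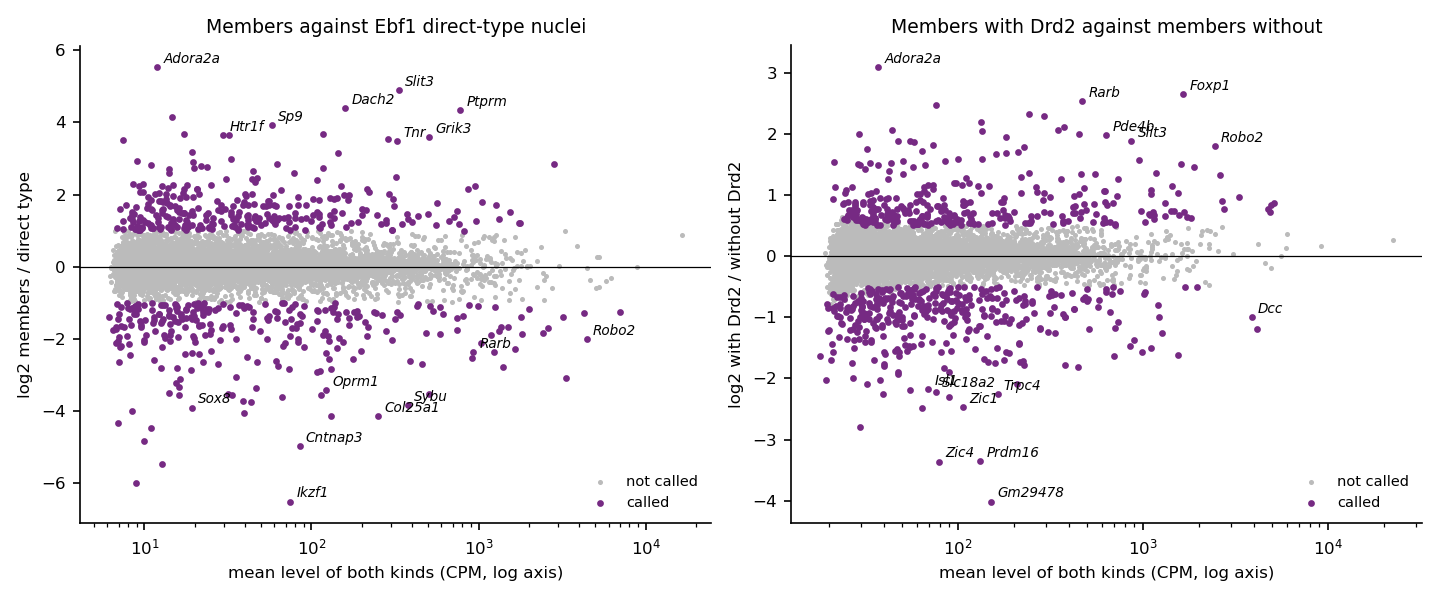
Log2 difference (y axis) of every gene tested against its mean level in CPM (x axis, log scale), for members against Ebf1 direct-type nuclei (left) and for members with Drd2 against members without (right). Called genes are purple. Adora2a lies at the top of both panels, at 5.53 and 3.09.

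Grouped by list, 3 of 7 indirect pathway genes outside the rule could be tested, and all 3 were higher in members than in the direct type. These were Adora2a (23.3 and 0.490 CPM), Sp9 and Sp8 (15.8 and 2.17 CPM). Of 4 tested direct pathway genes Sox8 (2.41 and 36.1 CPM), Foxo1 (6.82 and 35.6) and the semaphorin receptor Plxnd1 were lower, with a median log2 difference of -2.99 for the tested genes of the list and 0.00 for all genes. Adora2a, Sp8 and Sp9 lay near the floor in the direct type and Sox8 and Foxo1 in members, so passing the filter favoured their direction. Each kind was also chosen without entry genes of the other (Ebf1 in members, Six3, Six3os1 and Drd2 in the direct type). That choice favours the direction found for genes that go with these, so these lists are no independent support for the kinds. The counts and the median of these lists carry no test. Of 17 shared striatal genes 1 was higher (Ptpn5) and 4 were lower, namely Ikzf1, Rarb (312 ± 64.4 and 1553 ± 126 CPM), Rxrg and Foxp2 (1038 ± 260 and 2575 ± 252 CPM). Foxp1 was at a log2 difference of -0.92 in all members, under the size needed for a call, and at 0.51 in members with Drd2 alone, so its direction turned with the makeup of the members. Rxrg was at -0.34 (SE 0.11) in members with Drd2 alone, also under that size. Rarb was lower both ways, at -2.38 in all members and -1.001 in members with Drd2. All 4 tested septal and ventral markers were higher in members, with a median of 1.97. In members with Drd2 alone Zic1 was at -0.40 (SE 0.19, edgeR adjusted p = 0.17), Zic4 at -0.06 (SE 0.34) and Trpc4 at -0.03 (SE 0.20).

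Receptor and channel genes differed in part. Of 27 ionotropic receptor and transporter genes Grik3, the AMPA receptor subunit Gria1 (1645 ± 117 and 466 ± 74.4 CPM), Gabra3 and Grin2d were higher in members, Grik2 (832 and 2828 CPM) was lower and 22 did not pass. Of 13 other G protein coupled receptors the muscarinic receptor Chrm1 (21.3 and 5.79 CPM) and Grm8 (303 and 98.2) were higher and Oprm1 and the cannabinoid receptor Cnr1 (33.3 and 133) lower. The potassium channel Kcnj3 (135 and 22.7 CPM) and the calcium channel subunit Cacna2d2 were higher and Cacna1e lower among 21 channels. Axon guidance genes were 7 higher, 6 lower and 22 not passing. Slit3, Unc5d (1582 ± 226 and 329 ± 69.0 CPM), Nrp1, Nrp2, Plxna4, Slit2 and Robo3 were higher, and Robo2 (1827 ± 209 and 7064 ± 433), Ephb1, Ntn1, Sema3a, Sema3d and Plxnd1 lower. Some were not called with only the Drd2 members, in which the log2 difference of Nrp1 was below 0 (-0.29, SE 0.12, edgeR adjusted p = 0.11) and those of Nrp2 (0.62), Slit2 (0.64) and Robo2 (-0.92) stayed under the size needed for a call, as did that of Ptpn5 (0.54). Of 33 dopamine and cAMP genes 30 did not pass, Pde4d was higher and Adcy8 and Akap5 were lower. The subpallial factor Dlx2 (24.0 and 8.07 CPM) was higher in members, as was Dlx1. With only the Drd2 members Pde4d (0.83) and Dlx1 (0.91) stayed under the size needed for a call, and Dlx2, Akap5, Grin2d, Robo3, Lhx8, P2ry12 and Sp8 did not pass the filter on low counts. Among markers of other cells, 2 of 5 tested progenitor genes were higher in members, Sox2 (77.0 and 12.3 CPM) and Pax6 (56.9 and 14.8), while Mki67 (log2 0.51), Nes (0.04) and Vim (-0.23) were not called. Of 3 medial eminence genes Lhx8 (31.3 and 7.72) was higher. Of 3 caudal eminence genes Prox1 (42.6 and 14.8) was higher, and Adarb2 lay the other way at -0.74, under the size needed for a call, and at -2.02 (SE 0.22) with only the Drd2 members. Of 4 glutamatergic genes Slc17a6 (12.1 and 24.4) was lower, as was P2ry12 (2.49 and 11.9), the only glial, microglial or vascular marker that could be tested. P2ry12 was near the floor in members, so the filter favoured that direction. Without the 838 members that held a septal list gene 535 genes were called, 430 of them shared with the 572 above. The part of the other cells in these differences was not tested.

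The share of Six3 Drd2 nuclei was compared between genotypes over animals. It was 1.41%, 1.90% and 1.51% of nuclei in WT, 1.48%, 1.85% and 1.87% in Het, and 1.37%, 2.06% and 1.70% in KO. The 3 ranges overlapped. KO minus WT was 0.10 percentage points and Het minus WT 0.13, each with an exact permutation p of 0.70 (two-sided, n = 3 against 3, where the smallest possible p is 0.1). The change per intact allele was -0.05 percentage points (exact permutation p = 0.63 over 1680 arrangements of 9 animals). The share of GABAergic nuclei was 6.53 ± 1.21% for WT animals, 6.97 ± 0.962% for Het animals and 6.79 ± 0.604% for KO animals (SD, n = 3 each). The exact permutation p-values were 0.80 for KO, 0.70 for Het and 0.73 for the change per allele, and over these 6 tests the adjusted p was 0.80 throughout. With each nucleus thinned to 1500 UMIs, and shallower nuclei left out, members were 1.06 ± 0.128% of nuclei for WT, 1.15 ± 0.119% for Het and 1.14 ± 0.315% for KO animals. Differences of this size could not be resolved with 3 animals a group.

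The makeup of the members overlapped between genotypes as well. Drd2 UMIs were present in 21.7%, 27.4% and 26.2% of members in WT, 21.8%, 29.7% and 28.2% in Het, and 22.4%, 26.9% and 23.7% in KO, with replicate 1 the lowest of its group in each genotype. The summed level of the 5 septal and ventral markers lay between 433 and 729 CPM for WT animals, between 386 and 590 for Het and between 226 and 729 for KO. The 11 glial, microglial and vascular markers summed to 9.06 to 14.7 CPM over all 9 animals.

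**Figure D4:**
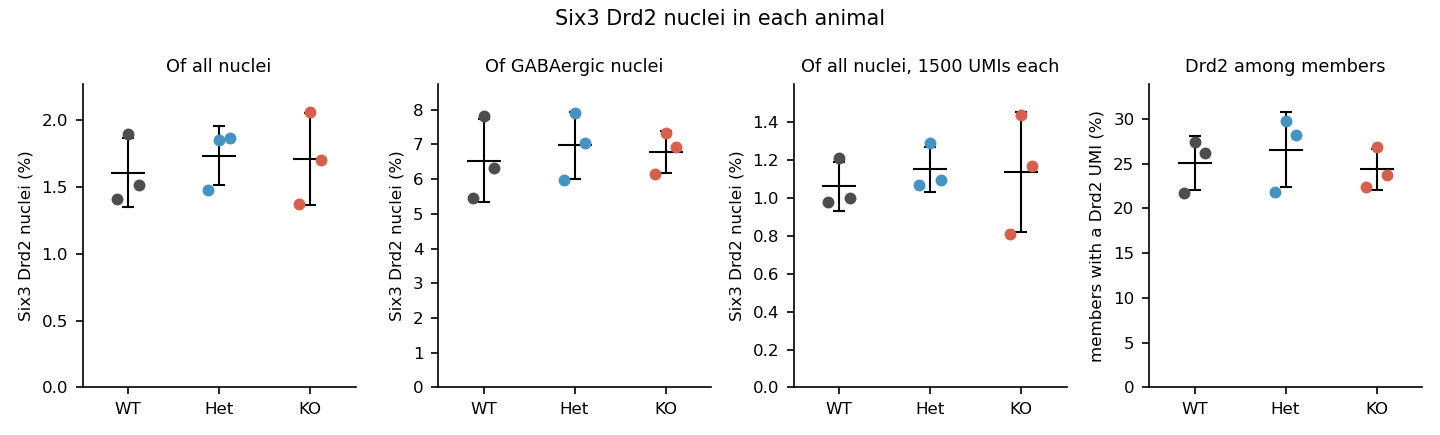
Share of Six3 Drd2 nuclei in each animal (points) with the mean and SD of 3 animals (black), as percent of all nuclei, of GABAergic nuclei and of nuclei thinned to 1500 UMIs, and share of members with a Drd2 UMI. The ranges of the 3 genotypes overlap in every panel.

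Myt1l itself (chr12:29528384-29923213) was counted first. The frameshift leaves the RNA countable, so its level does not check the labels. It read 1807, 2004 and 1728 CPM in WT, 1944, 2112 and 2220 in Het, and 2194, 2426 and 2247 in KO. Every KO animal lay above every WT animal, with a log2 difference of 0.34 (SE 0.11) that did not pass (edgeR adjusted p = 0.99). Its relatives Myt1 (132 ± 4.49 CPM in WT, 167 ± 2.05 in KO, log2 0.37, SE 0.12) and St18 (log2 0.55, SE 0.33) did not pass either.

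No gene passed the test between genotypes in Six3 Drd2 nuclei. Counts summed per animal were fitted over all 9 animals by edgeR's quasi-likelihood test, and a call needed an adjusted p below 0.05 and a log2 difference above 0.2, over 9830 genes. KO against WT gave 0 calls (0%), Het against WT 0 (0%) and the trend with the number of intact alleles 0 (0%), with 445, 303 and 476 genes at an unadjusted p under 0.05. DESeq2 gave 0 calls for KO and 0 for Het, with 143 and 73 genes at an unadjusted p under 0.05. The median standard error of a KO difference was 0.23 on the log2 scale. The values of the 3 KO and 3 WT animals did not overlap in 10.2% of the genes tested (1007, of which 423 were higher), and those of Het and WT in 8.88%.

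The genes nearest to the threshold with higher values in KO were led by Maml2, a coactivator of Notch signalling (chr9:13297957-13709388). It read 108, 124 and 108 CPM in WT, 118, 112 and 152 in Het, and 176, 199 and 201 in KO, a log2 difference of 0.79 (SE 0.14) that did not pass (edgeR adjusted p = 0.42). Phf21a, a subunit of a histone demethylase complex (chr2:92093117-92364666), read 445, 499 and 499 CPM in WT, 578, 569 and 466 in Het, and 681, 701 and 700 in KO, with a log2 difference of 0.55 (SE 0.11, edgeR adjusted p = 0.62). The antisense RNA Nr6a1os (chr2:38823257-38852370) read 45.2, 43.8 and 49.6 CPM in WT, 50.1, 68.3 and 62.3 in Het, and 81.7, 71.8 and 79.0 in KO, with a log2 difference of 0.76 (SE 0.16, edgeR adjusted p = 0.62). In all 3 genes the KO animals lay above the WT animals, which the choice by p favours. Nr6a1os lies across Nr6a1 on the other strand, so reads of the 2 may not be separable. The copper transporter Atp7a (log2 0.62, SE 0.14) and the nuclear receptor Rorb (log2 0.71, SE 0.16) were next, both at an edgeR adjusted p of 0.87.

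The genes nearest to the threshold with lower values in KO were the microRNA exporter Xpo5 (log2 -0.79, SE 0.21), the secreted protein Nell1 (-0.64, SE 0.17), the translation repressor Eif4ebp2 (-0.62, SE 0.17), the contactin Cntn3 (-0.80, SE 0.23) and the adhesion molecule Alcam (-0.68, SE 0.19), each at an edgeR adjusted p of 0.99. Nell1 read 149, 162 and 156 CPM in WT, 123, 110 and 161 in Het, and 104, 76.7 and 118 in KO. It was the only gene called, at -1.13 (SE 0.18, edgeR adjusted p = 0.033), once the 1019 members with a UMI of another class's gene (Isl1 in 469, Mki67 in 302) were left out. Alcam read 212, 173 and 190 CPM in WT, 103, 162 and 211 in Het, and 123, 122 and 107 in KO. In members with Drd2 alone Cntn3 was at 0.02 (SE 0.44) and in members without Drd2 at -1.23 (SE 0.27).

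**Figure D5:**
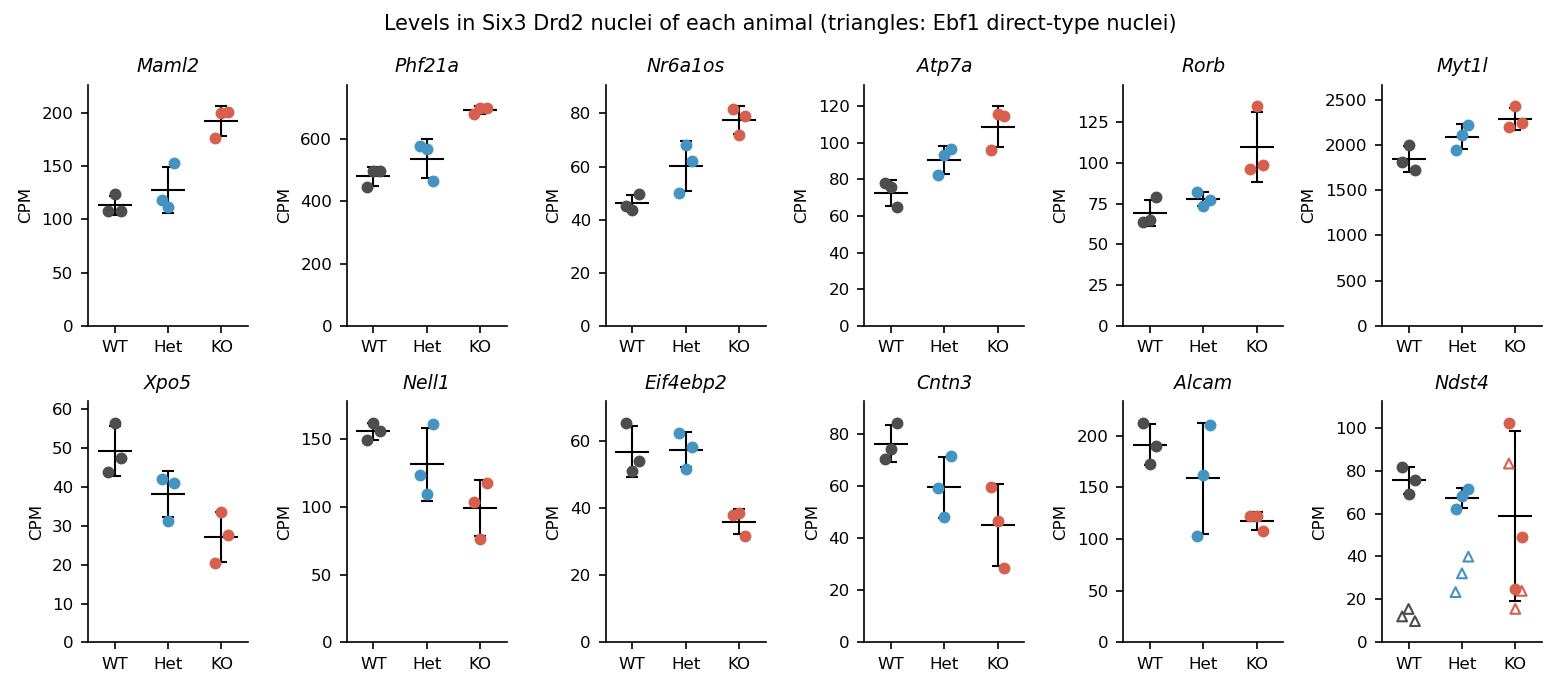
Level in CPM (y axis, linear from 0) in Six3 Drd2 nuclei of each animal (points) with the mean and SD of 3 animals (black) for the 10 genes nearest to the threshold in KO against WT, for Myt1l and for Ndst4, where triangles show Ebf1 direct-type nuclei. The KO points of Maml2, Phf21a and Nr6a1os lie above all WT points, and none of the 10 genes passed the test.

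With 1 mutant allele the nearest genes were others. Higher values that did not pass were found for the calcium-binding protein Calb1 (log2 1.04, SE 0.29), Lancl3 (1.05, SE 0.30), the DNA damage kinase Atm (0.51, SE 0.14) and Fhod3 (0.44, SE 0.14). Lower values were found for Nectin1 (-0.55, SE 0.13), Smc2 (-0.84, SE 0.25), Samd1 (-0.85, SE 0.26), Rrp1 (-0.67, SE 0.22) and Afg3l1 (-0.63, SE 0.20). These genes had an edgeR adjusted p that rounded to 1.00. In the trend with intact alleles Maml2, Phf21a and Nr6a1os had the lowest p-values, at an edgeR adjusted p of 0.34, with log2 changes per intact allele of -0.40 (SE 0.07), -0.28 (SE 0.05) and -0.38 (SE 0.07). Atp7a, Rorb, Xpo5, Nell1, Cntn3 and Alcam recurred there and Cyp26b1, which degrades retinoic acid, joined them with 36.7, 28.7 and 18.9 CPM in WT, Het and KO. The trend uses the same WT and KO animals as the KO comparison.

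By list, none of the tested genes was called in KO or Het. The 4 tested indirect pathway genes had a median log2 KO difference of -0.13 against 0.00 over all genes. Adora2a read 17.6, 19.8 and 24.8 CPM in WT, 19.0, 22.1 and 19.7 in Het, and 25.2, 40.4 and 21.3 in KO (log2 0.55, SE 0.27), and Penk 8.78, 16.2 and 22.6 CPM in WT, 2.00, 10.1 and 12.3 in Het, and 9.43, 14.6 and 11.1 in KO (log2 -0.38, SE 0.42). Both overlapped between genotypes. The 16 shared striatal genes had a median of 0.05, the 31 dopamine and cAMP genes 0.04, the 33 axon guidance genes 0.01, the 27 ionotropic receptor genes 0.01, the 21 voltage-gated channels 0.05 and the 14 other G protein coupled receptors -0.23. In the last list the muscarinic receptor Chrm2 stood out after its values were seen, with 32.6, 56.5 and 61.5 CPM in WT, 52.1, 99.6 and 83.6 in Het, and 151, 116 and 73.5 in KO (log2 1.13, SE 0.29, edgeR adjusted p = 0.99). The Drd2 RNA, used by the rule, read 168, 191 and 178 CPM in WT, 156, 201 and 151 in Het, and 134, 199 and 168 in KO.

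Of 14 genes that changed in KO in other neurons in earlier results of these data, 13 were tested and 0 were called in members, with a median of 0.03. They were chosen on these animals and are no independent evidence. Nr6a1os, Maml2, Adamts6 (log2 0.76, SE 0.30), Abtb2 (0.73, SE 0.29) and Slc9a9 (0.45, SE 0.15) had the largest positive values, and Sema3e (-0.53, SE 0.34) and Rnf220 (-0.45, SE 0.69) the largest negative ones. Over the same animals Nr6a1os was at 0.56 (SE 0.07, edgeR adjusted p = 0.037) in the other GABAergic nuclei and 0.63 (SE 0.08, edgeR adjusted p = 0.0099) in glutamatergic nuclei. Maml2 was at 0.46 (SE 0.08, edgeR adjusted p = 0.16) and 0.32 (SE 0.08, edgeR adjusted p = 0.089) and passed in neither. Phf21a was at 0.47 (SE 0.09, edgeR adjusted p = 0.33), which did not pass, and 0.49 (SE 0.08, edgeR adjusted p = 0.021). Abcg2 was at -0.11 (SE 0.29) in members and 0.85 (SE 0.08) in glutamatergic nuclei, and the glutamate receptor Grm5 at -0.28 (SE 0.15) and -0.91 (SE 0.12). The larger kinds of nuclei had smaller errors, and the differences between kinds were not tested here apart from the direct type.

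The KO effect in members was set against that in Ebf1 direct-type nuclei by an interaction term over 11349 genes. Ndst4, an enzyme of heparan sulfate synthesis (chr3:125404076-125728899), was the only call (0.00881%), and 451 genes had an unadjusted p under 0.05. In members it read 81.5, 69.2 and 75.5 CPM in WT, 62.1, 68.3 and 71.3 in Het, and 102, 25.1 and 49.0 in KO. In the direct type it read 12.1, 15.6 and 9.92 CPM in WT, 23.4, 32.1 and 39.9 in Het, and 83.3, 15.6 and 24.0 in KO. The KO effect in members minus that in the direct type was -1.90 on the log2 scale (SE 0.26, edgeR adjusted p = 0.0063), while neither effect passed alone (-0.49, SE 0.32, in members and 1.44, SE 0.49, in the direct type). KO replicate 1 was the highest animal in both kinds. Split by Drd2, members with it read 28.4, 47.6 and 58.1 CPM of Ndst4 in WT, 41.5, 30.5 and 28.9 in Het, and 6.83, 9.48 and 12.8 in KO, so every KO animal lay below every WT animal. These levels rest on few UMIs, with 5, 20 and 15 in WT, 9, 10 and 10 in Het, and 1, 4 and 4 in KO. That KO effect was -2.12 (SE 0.46) and did not pass (edgeR adjusted p = 0.31). In members without Drd2 it was -0.31 (SE 0.33), with KO animals from 31.6 to 131 CPM around the WT range of 79.3 to 96.7 CPM, and the difference between both kinds of members was not tested. With only the Drd2 members the interaction against the direct type was -3.36 (SE 0.57, edgeR adjusted p = 0.045), an alternative chosen after seeing the data. Over all members the adjusted p of the interaction was 0.092 without WT replicate 1 and 0.088 without KO replicate 1, and in run 1 alone the difference was -0.85 (SE 0.64).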

How the data were processed

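Nuclei were fixed, barcoded by well and sequenced. The authors aligned reads to mm10 and counted UMIs per gene and nucleus with the ScaleRna workflow. The deposited matrices hold estimated counts that the authors did not normalise, of which 6.70% to 8.71% of entries are not whole. No source used here names the annotation release or the strand setting. Per the labels, Seurat 4.3.0, DESeq2 1.38.3 and Scanpy 1.12.0 were used later by the submitters.

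Counts of the chosen nuclei were summed per animal over both runs and rounded, and the genes of the rule were left out of every fit. Genes passed edgeR's filterByExpr, were scaled by TMM and tested by glmQLFit and glmQLFTest (edgeR 4.0.16, R 4.3.3) with Benjamini-Hochberg adjustment. DESeq2 1.42.0 was an alternative. Standard errors are the log2 difference over the root of F. Levels are CPM of all UMIs. Shares were tested by exact permutation over animals (scipy 1.17.1). The fits were also run on simulated counts, and no rates from them are given here. The simulated comparison of kinds of nuclei had no animal effect and a lower log2 limit, so it was unlike the comparison made here. Positions are GENCODE vM21 on GRCm38.

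No doublet caller was run. The barred genes, and an alternative that left out nuclei with a UMI of 12 genes of other classes, stood in. Named genes were, at 20 CPM or more, the 5 lowest p-values in each direction where nothing was called, and for kinds of nuclei the 10 largest calls in each direction at 50 CPM or more that held in 9 of 9 animals. Genes on the sex-defining list (Xist, Tsix and Y-linked genes) were not named, and a few genes that the rule or lists hold are not reported here. Members, lists and tests were chosen with earlier results of these data known. Alternatives left out each animal, used 1 run, changed the normalisation, the filter, the limits or the rule, or added the replicate number as a term. The 3 animals a genotype are separate embryos, from 3 litters in all. Standard errors, SDs and permutation tests over animals include the variation between embryos.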

Additional observations from a re-analysis of the deposited data

Results flagged for a closer look

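The KO effect on Ndst4 differed between Six3 Drd2 nuclei and Ebf1 direct-type nuclei of the same animals, with an interaction of -1.90 on the log2 scale (SE 0.26, edgeR adjusted p = 0.0063), and this test of the difference drew attention to it. The means in members were 75.4 CPM in WT and 58.7 in KO, and in the direct type 12.5 CPM in WT and 41.0 in KO, where the SD of the 3 KO animals was 36.9 CPM. In the direct type the KO animals read 83.3, 15.6 and 24.0 CPM, and the WT values rest on 23, 39 and 18 UMIs. The call was lost without WT replicate 1, without KO replicate 1 and in run 1 alone. Other values of Ndst4 stand with the comparison above.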

How the results depend on the processing

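Without the filter on low counts KO against WT gave 19 calls, Het against WT 19, the allele trend 23, the interaction 12, members against the direct type 1050 (550 shared with the filtered fit) and members with against without Drd2 1049 (593 shared). Without members that held another class's gene KO gave 1 call and the trend 1. The trend gave 3 calls without upper limits on UMIs and genes, 1 with at least 3 of the 6 genes, and 0 to 1 on leaving out each animal, with the 1 call coming without KO replicate 1. The interaction gave 0 calls in run 1 alone, 0 to 2 on leaving out each animal (0 without WT replicate 1 or KO replicate 1, 2 without WT replicate 3, Het replicate 1 or Het replicate 3) and 2 without septal list genes, an alternative chosen after seeing the data. Run 1 alone gave 259 calls against the direct type (233 shared) and 308 between members with and without Drd2 (253 shared). In members with Drd2 Cntn3 turned to 0.0231 for KO and -0.0134 for the trend. Leaving out each animal moved the difference in share of nuclei to between -0.0722 and 0.272 percentage points for KO minus WT, 0.03 to 0.27 for Het minus WT and -0.135 to 0.0237 per intact allele. Of GABAergic nuclei the same gave -0.28 to 0.91, -0.10 to 1.09 and -0.41 to 0.14. Without other-class nuclei the GABAergic share turned to -0.12 for KO minus WT and 0.0600 per allele. The cause of these changes was not tested.

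The deviations of same-numbered animals from their group means correlated at 0.0147 to 0.226 (mean 0.118), over 0.1 in 6 of 9 pairs, and those of differently numbered animals at -0.235 to 0.0928 (mean -0.0589), over 0.1 in 0 of 18. Het replicate 3 and KO replicate 3 correlated best with an animal of another number. Deviations from a group mean sum to 0 within each genotype. The low values for differently numbered animals therefore follow largely from the same-number values and are no second observation. The same-number correlations are a hint from the data that numbers mark something shared. The labels do not say what a number marks and not every pair passed 0.1, so the animals were not treated as paired. With the replicate block KO, Het and the trend gave 0, 0 and 0 calls, with 598, 391 and 638 genes at an unadjusted edgeR p under 0.05, and the KO minus WT share was 0.10 percentage points as before. With a median standard error of 0.23 on the log2 scale and 3 animals a group, small genotype differences could not be resolved.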
